A study of Mus musculus with 6 samples.

Results

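Transcripts of 6 genes that carry the thyroid hormone signal into the nucleus were followed in heart muscle cell preparations from wild-type mice: the receptors Thra and Thrb, the partner receptors Rxrb and Rxrg, the transporter Slc16a10 and the corepressor Ncor1. They were taken by gene symbol from a table of 22063 genes, and all 6 had enough counts to be among the 13117 genes tested. The AKG group came from mice given 300 mg/kg of α-ketoglutarate (AKG, an intermediate of the tricarboxylic acid cycle) each day for 2 weeks, and the Control group from mice given phosphate-buffered saline. Per the labels, all mice were of wild-type genotype. The labels give postnatal day 21 both for the injected mice and for the mice whose hearts were taken, so the age at sampling is not settled. The cells were freed by Langendorff perfusion of the heart. Each group held 3 mRNA libraries. Nothing in the labels said whether a library was 1 mouse or a pool, or gave the sex, so each p-value measures the spread between these libraries.

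Thyroid hormone enters cells through membrane transporters and binds receptors that sit on DNA, mostly as pairs with a retinoid X receptor (RXR). Without hormone the receptor holds corepressors such as NCOR1 with histone deacetylase HDAC3, and with hormone these are exchanged for coactivators. In the rodent heart the rise of thyroid hormone after birth goes with the change of the main myosin heavy chain from Myh7 to Myh6. Thra gives rise to a hormone-binding receptor and to a splice form that does not bind the hormone, and a count per gene does not separate them.

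Of the 6 genes, Thra and Rxrb were higher after AKG, Thrb, Rxrg and Slc16a10 were lower, and Ncor1 did not pass the test. The largest change was in Rxrg, which was 5.71-fold lower. Levels are given as CPM, counts scaled to equal library totals after TMM adjustment, so every change is relative to the bulk of genes. The test was edgeR's quasi-likelihood test with Benjamini-Hochberg adjustment over all tested genes and a threshold of 0.05. By this rule 25.0% of all tested genes were higher and 25.2% lower, so 5 called genes among 6 stand beside a background in which 50.2% were called. The 3 genes that were lower had each fallen at least 2-fold, which was the case for 6.12% of tested genes. With total counts as the scaling Thrb fell by 0.89 and Slc16a10 by 0.58 on the log2 scale, and without Control 1 Slc16a10 fell by 0.94, all under 2-fold. In CPM the groups did not overlap in 5 of the 6 genes, and in 59.2% of all tested genes (29.4% with all AKG libraries above the Controls and 29.9% with all below). In such bulk samples, fewer cells of a type and less RNA of a gene per cell cannot be told apart.

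**Figure D1:**
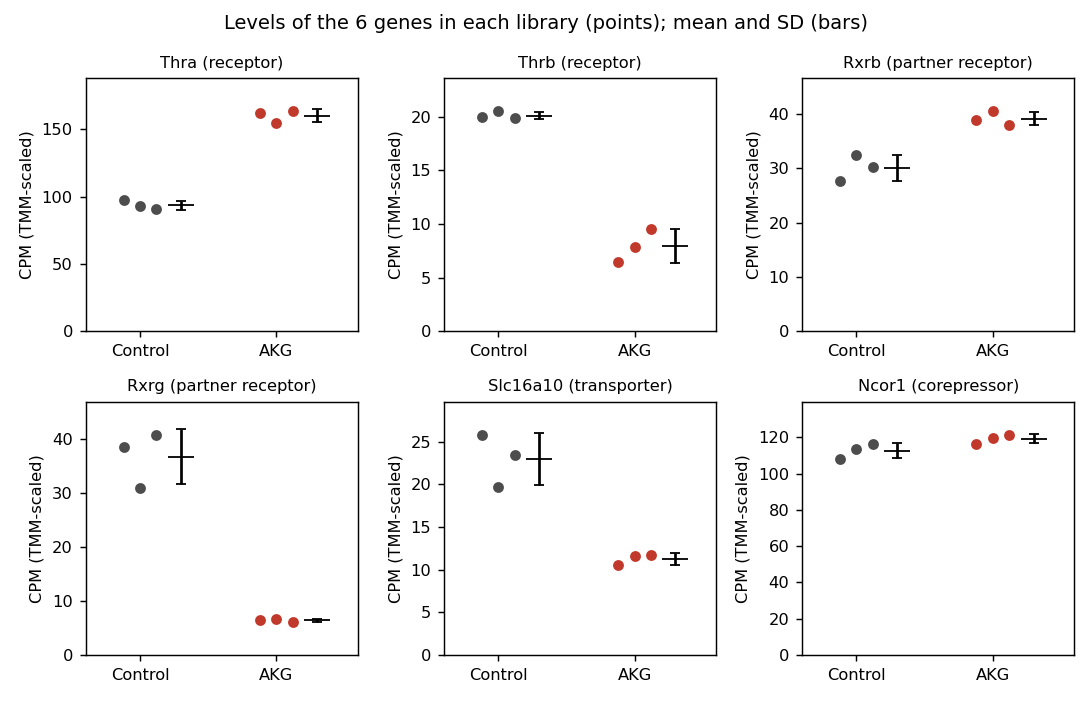
Level of each of the 6 genes in CPM (vertical axis, from 0) in the 3 Control and 3 AKG libraries (points, libraries 1 to 3 from left), with mean and SD beside them. Thra and Rxrb lie higher in all AKG libraries, Thrb, Rxrg and Slc16a10 lower, and the Ncor1 values of the groups touch.

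Thra encodes the receptor that is the main form in heart. It stood at 97.3, 92.9 and 90.5 CPM in Control 1, 2 and 3 and at 162, 155 and 163 CPM in AKG 1, 2 and 3. Every AKG library lay above every Control library, and the spread within each group was small. Thra rose by a log2 fold change of 0.78 (SE 0.071, edgeR adjusted p = 1.41e-06), or 1.71-fold. In the reference annotation GENCODE M21 exons of Thra overlap those of Nr1d1 on the other strand, and the sources used here do not state whether strand was used in counting. Nr1d1, which encodes the circadian repressor REV-ERBα, moved the other way, from 38.6 ± 3.49 to 25.6 ± 2.63 CPM (mean ± SD, n = 3 libraries; log2 fold change -0.59, edgeR adjusted p = 0.000296). That call was lost with total counts as the scaling (adjusted p = 0.263).

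Thrb encodes the second receptor. It stood at 19.9, 20.5 and 19.9 CPM in the Control libraries and at 6.46, 7.83 and 9.54 CPM in AKG 1, 2 and 3. The Control values were almost equal, and the highest AKG value was below all of them. Thrb fell by 1.34 on the log2 scale (SE 0.137, edgeR adjusted p = 3.72e-06). The 2 receptors therefore moved in opposite directions. Per transcript length, in the FPKM values made by the authors, Thra outweighed Thrb 9.13 ± 1.70 to 1 in Control and 39.9 ± 16.0 to 1 after AKG. The ratio was 11.1, 8.15 and 8.16 in the Control libraries and 58.1, 34.1 and 27.6 in the AKG libraries, with no overlap. An exact two-sided permutation test gave p = 0.1, the smallest it can give for 3 against 3, and this was also the p after adjustment over the 4 ratios reported.

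Retinoid X receptor transcripts changed in make-up. Rxrg, the form found mainly in muscle and parts of the brain, stood at 38.5, 31.0 and 40.7 CPM in Control and at 6.46, 6.65 and 6.16 CPM after AKG. Its AKG values were nearly equal to each other, and all lay far below the lowest Control library. Rxrg fell by 2.51 on the log2 scale (SE 0.123, edgeR adjusted p = 8.35e-09). Rxrb, which is expressed widely, stood at 27.6, 32.5 and 30.2 CPM in Control and at 39.0, 40.5 and 38.0 CPM after AKG. The groups did not overlap, but the gap between them was smaller than for the other genes that changed. Rxrb rose by 0.38 on the log2 scale (SE 0.0886, edgeR adjusted p = 0.00286). The third receptor of the family, Rxra, rose from 35.3 ± 1.91 to 59.6 ± 6.66 CPM (log2 fold change 0.75, edgeR adjusted p = 1.89e-05).

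By level per length, Rxrg made up 53.3 ± 5.14% of the RXR sum in Control and 12.1 ± 0.858% after AKG. Rxrb went from 29.6 ± 3.65% to 49.3 ± 2.97% and Rxra from 17.1 ± 1.49% to 38.5 ± 3.83%. The groups did not overlap for any of these shares (exact two-sided permutation p = 0.1 for each, the smallest possible). Rxrg was the most abundant of the 3 in each Control library and the least abundant in each AKG library. The family sum was 36.1 ± 1.16 FPKM in Control and 37.4 ± 2.55 FPKM after AKG. FPKM is scaled to the whole library, and on that kind of scale the median of all genes was higher after AKG (median log2 fold change 0.44 in log2(FPKM + 0.1)).

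**Figure D2:**
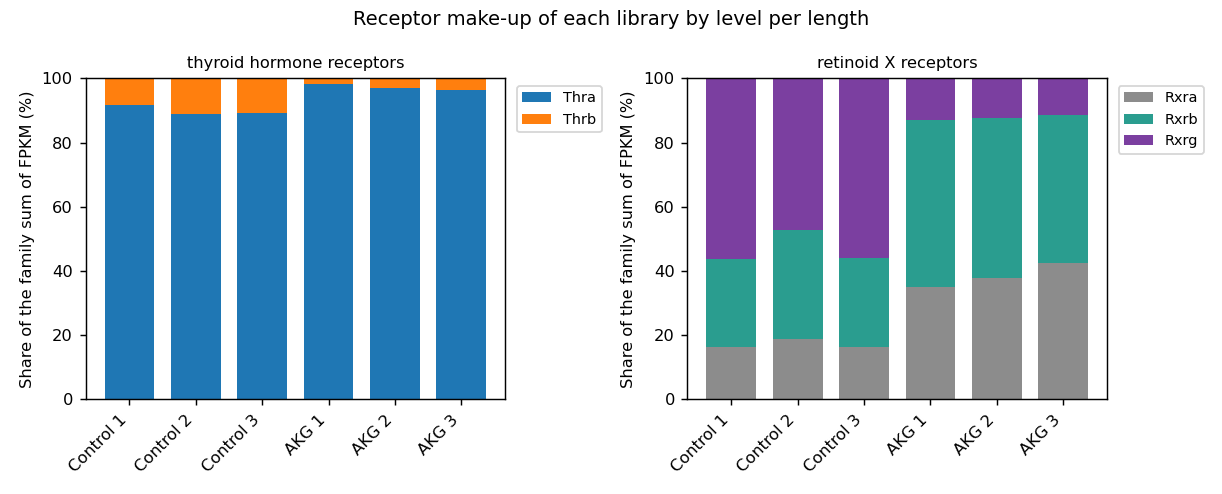
Share of each receptor in its family's FPKM sum (vertical axis, percent) in each library, for the thyroid hormone receptors (left) and the retinoid X receptors (right). Thrb shrinks from 8.27% to 10.9% in the Controls to 1.69% to 3.49% after AKG, and Rxrg from at least 47.3% to at most 12.9%.

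Pairs of a thyroid hormone receptor and an RXR bind repeats of the hexamer AGGTCA, best known as a direct repeat with 4 bases between the copies. The 250 bases before each RefSeq transcript start were searched on both strands, on build GRCm38.p6. The hexamer occurred in 14% of 32851 such windows. By gene symbol, 4260 of 27025 held it in at least 1 window. Promoter windows were found for 5 of the 6 genes, and 2 of these, Thrb and Rxrg, held the hexamer. It was in window 1 of Thrb and window 2 of Rxrg, and not in window 2 of Thrb or window 1 of Rxrg. The windows of Slc16a10, which also fell, and of Ncor1 and Rxrb did not hold it. The windows with a match are shown as examples, with 60 bases on each side and the match in capitals.
Thrb, plus strand, chr14:17660716-17660841: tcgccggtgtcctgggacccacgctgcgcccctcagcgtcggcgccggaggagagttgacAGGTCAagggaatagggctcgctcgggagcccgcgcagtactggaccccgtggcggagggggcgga
Rxrg, second start, plus strand, chr1:167618117-167618242: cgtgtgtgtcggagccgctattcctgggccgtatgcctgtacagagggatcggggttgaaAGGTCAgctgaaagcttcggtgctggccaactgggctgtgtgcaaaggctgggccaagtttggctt
The match lies 184 bases before the start in Thrb and 88 bases before the start in Rxrg. It is a match of letters and not a measured binding site.

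Slc16a10 encodes MCT10, a carrier of aromatic amino acids and thyroid hormone. It stood at 25.8, 19.7 and 23.5 CPM in Control and at 10.5, 11.6 and 11.7 CPM after AKG. Control 2 was the lowest Control and still lay above every AKG library. Slc16a10 fell by 1.03 on the log2 scale (SE 0.12, edgeR adjusted p = 1.18e-05). The fall was smaller with total counts as the scaling (0.58) and on the log2(FPKM + 1) and log2(FPKM + 0.1) scales, with estimates of -0.45 and -0.57 for Slc16a10, and it passed the threshold in each.

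Ncor1, the corepressor, stood at 108, 114 and 116 CPM in Control and at 116, 120 and 121 CPM after AKG. The lowest AKG value, 116.3 CPM, stood just below the highest Control value, 116.31 CPM, and the log2 fold change was 0.08 (SE 0.0695, edgeR adjusted p = 0.357). With total counts as the scaling, where the median of all genes shifts by 0.45, Ncor1 had a log2 fold change of 0.52 and passed the threshold (edgeR adjusted p = 8.76e-05). In GENCODE M21 exons of Pigl and Ttc19 overlap Ncor1 on the other strand.

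Among themselves, the 6 genes spanned about the same order of levels in both groups apart from Rxrg. Per length in Control, Thra stood highest at 33.7 ± 1.70 FPKM, followed by Ncor1 at 21.2 ± 1.74 and Rxrg at 19.2 ± 1.91 FPKM, which overlapped. Rxrb followed at 10.7 ± 1.38 FPKM, and Slc16a10 at 4.28 ± 0.351 and Thrb at 3.77 ± 0.658 FPKM overlapped at the bottom. After AKG the order was Thra at 79.7 ± 6.17, Ncor1 at 32.3 ± 0.766, Rxrb at 18.4 ± 0.293, Rxrg at 4.52 ± 0.0801, Slc16a10 at 2.85 ± 0.162 and Thrb at 2.21 ± 0.852 FPKM. In that group the lowest pair again overlapped, and Rxrg now stood below Rxrb.

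The FPKM of Thrb varied more than its counts. A count, its FPKM and the library total together imply the transcript length that the authors' software used, which depends on the mix of splice forms it assigned. For Thrb this length was 5441, 4273 and 4245 bases in Control 1, 2 and 3 and 5418, 4080 and 3769 bases in AKG 1, 2 and 3. The long values belong to Control 1 and AKG 1, so the length did not separate the groups. The SD of its log2 over the libraries was 0.221, larger than for 97.2% of 10433 genes with at least 50 counts and 0.5 FPKM in every library. Thra (2331 to 2393 bases), Rxrg (1631 to 1673) and Rxrb (2402 to 2509) hardly varied. In FPKM the groups overlapped for Thrb, with 3.087 in AKG 3 above 3.049 in Control 1. The fall of Thrb was 0.80 on the log2(FPKM + 0.1) scale (limma adjusted p = 0.0181) against 1.34 in counts. On the FPKM scale the median gene stood 0.44 higher after AKG.

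**Figure D3:**
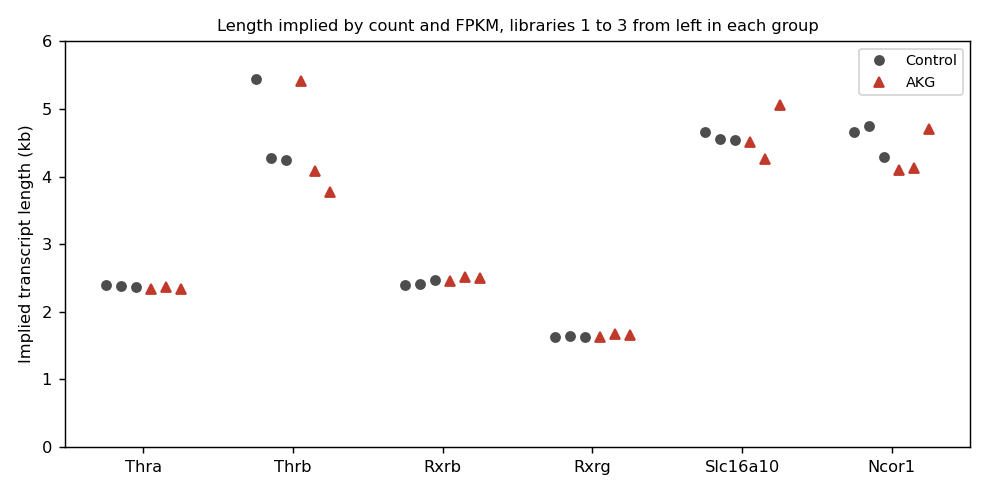
Transcript length implied by count, FPKM and library total (vertical axis, kb) for the 6 genes in each library, Control as circles and AKG as triangles. Thrb ranges from 3769 to 5441 bases without separating the groups, and Thra, Rxrb and Rxrg stay nearly constant.

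The summed levels of several cell type markers differed between the groups. All counts of called markers here stand beside 25.0% higher and 25.2% lower over all tested genes. Of 10 heart muscle cell markers, among them Myh6, Ttn and Ryr2, 8 fell. Pln and Actn2 did not pass (log2 fold change -0.01 and -0.13, edgeR adjusted p = 0.939 and 0.232). The sum of the 10 was 63500 to 68900 CPM in Control and 32900 to 37200 CPM after AKG. Much of it was Myh6, which is also regulated by thyroid hormone and went from 27743 ± 1091 to 12427 ± 1768 CPM. The part of the heart muscle cell markers in the falls of Rxrg, Thrb and Slc16a10 was not tested. Atrial markers (4 of 8 tested were higher) summed to 193 to 281 CPM in Control and to 1080, 614 and 1150 CPM in AKG 1, 2 and 3. Most of the sum in AKG 2 was Nppa (454 CPM). The atrial genes Sln, Myl7, Myl4 and Bmp10 were near Control levels in AKG 2, and Mybphl, at 0.62 CPM, was just above them. Dkk3 (22.05 CPM), Stk39 (93.93 CPM) and Gja5 (14.35 CPM) in AKG 2 lay above their highest Control values (12.98, 81.94 and 12.32 CPM). Nr2f2, at 21.8 CPM in AKG 2, lay within its Control range. With AKG 2 alone against the Controls, a fit whose spread comes from the Controls only, the estimates were 0.73 for Thra, -1.35 for Thrb, -2.46 for Rxrg, -0.98 for Slc16a10 and 0.43 for Rxrb. Sums of fibroblast (3360 to 4230 and 3220 to 4240 CPM) and endothelial markers (3360 to 3730 and 2970 to 3710 CPM) overlapped between the groups. Their members moved both ways. Of 12 fibroblast markers 3 were higher and 5 lower, and of 12 endothelial markers 3 were higher and 4 lower, beside 25.0% and 25.2% of all tested genes. Smooth muscle and pericyte (2320 to 2540 and 1380 to 1580 CPM), macrophage (127 to 190 and 77.6 to 111 CPM), Schwann cell (16.8 to 22.5 and 10.3 to 11.2 CPM) and lymphocyte sums (7.51 to 11.2 and 2.61 to 4.10 CPM) were lower after AKG. Of 10 smooth muscle and pericyte markers 6 were lower and 1, Abcc9, was higher (log2 fold change 0.39). Pdgfrb and Notch3 did not pass (-0.02 and -0.06). Acta2 went from 648 ± 95.6 to 130 ± 72.0 CPM and Rgs5 from 1061 ± 23.0 to 693 ± 65.6 CPM. Neutrophil (1.10 to 2.04 and 6.63 to 13.9 CPM, with Ly6g at 0) and mesothelial sums (27.2 to 29.5 and 37.2 to 52.1 CPM) were higher. Erythroid sums (1390 to 1960 and 1460 to 2120 CPM) overlapped. The adipocyte sum (818 to 971 and 586 to 851 CPM) was almost wholly Fabp4, which is also an endothelial marker. Retn, Cidec, Lep and Cfd were at 0 and Adipoq, Plin1 and Ucp1 had at most 3 counts in any library. The part of these cell types in the levels of the 6 genes was not tested. Library totals ran from 14402876 to 17797368 counts, and Y-linked transcripts varied from 0.311 to 176 CPM within the Controls and from 39 to 89.2 CPM within the AKG group. With their level as a covariate, the 5 genes kept the sign and the call they had.

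Other genes of hormone entry and conversion were mostly low or did not pass the test. Of 17 further transporter, deiodinase and binding protein genes considered, 8 passed the count filter. Of those, 1 rose and 1 fell, beside 25.0% and 25.2% of all tested genes. Their median log2 fold change was -0.15 beside 0.00 for all tested genes. The gene that rose was Slc7a5, the light chain of the LAT1 amino acid transporter (5.37 ± 0.728 to 8.14 ± 0.875 CPM). With the atrial transcripts as a covariate the estimate for Slc7a5 was 0.66 against 0.60 without it, and the call was lost (edgeR adjusted p = 0.0521). Sepsecs, an enzyme of selenocysteine synthesis, fell from 19.8 ± 0.885 to 15.8 ± 1.63 CPM (edgeR adjusted p = 0.0227). The estimate for Sepsecs was -0.33. The call was lost without Control 1 (-0.31, adjusted p = 0.0719), without Control 3 (-0.30, 0.0744), without AKG 3 (-0.24, 0.0767) and with DESeq2 (-0.32, 0.0513). It was also lost with the atrial covariate, where the estimate was smaller (-0.19, edgeR adjusted p = 0.377). Dio2 encodes the deiodinase that activates the hormone and stood at 3.13, 3.29 and 1.84 CPM in Control and at 3.60, 1.24 and 2.39 CPM in AKG 1, 2 and 3 (edgeR adjusted p = 0.68). It was lowest in AKG 2, and the estimate was -0.19 with all libraries and 0.12 without AKG 2. With the atrial covariate the estimate for Dio2 was -1.32 and passed the threshold (edgeR adjusted p = 0.0318). With AKG 2 alone against the Controls the Dio2 estimate was -1.15. Dio3, the inactivating deiodinase, had 1 count in the summed Controls and 0 in the summed AKG libraries, and Dio1 had 0 in both groups, where 3 counts would be 0.166 to 0.221 CPM.

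Partners of the corepressors rose or did not pass. Of 13 genes considered, 9 rose and 0 fell, beside 25.0% and 25.2% of all tested genes (edgeR; 0 also at an unadjusted p under 0.05 and with DESeq2 and limma-voom). Hdac3, Hdac2, Hdac4 and Hdac7 had estimates from -0.10 to -0.02. The list's median was 0.33. Cops2, a signalosome subunit also known as a corepressor of thyroid hormone receptors, rose from 61.6 ± 3.17 to 107 ± 1.87 CPM. The histone demethylase gene Kdm1a rose from 33.4 ± 1.46 to 53.6 ± 0.711 CPM, the deacetylase gene Hdac5 from 83.3 ± 6.11 to 127 ± 1.26 CPM and the scaffold gene Sin3a from 31.5 ± 3.44 to 44.4 ± 1.29 CPM. Tbl1x and Tbl1xr1, core subunits of the NCOR complex, rose by 0.33 and 0.52 on the log2 scale. With the atrial covariate, a fit that leans mainly on AKG 2, both calls were lost (edgeR adjusted p = 0.155 and 0.173). In that fit 5 of the 13 genes were higher. Hdac3, the deacetylase of that complex, stood at 46.9 ± 4.23 and 44.6 ± 2.25 CPM (edgeR adjusted p = 0.499). With total counts as the scaling Hdac3 passed as higher (0.37, edgeR adjusted p = 0.00472).

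Of 18 coactivator genes tested, 6 rose and 4 fell, with a median of 0.04. These shares lie near those of all tested genes (25.0% higher and 25.2% lower). The steroid receptor coactivator gene Ncoa2 rose from 37.03 ± 1.84 to 66.5 ± 3.90 CPM, the chromatin remodeller gene Smarca2 from 58.1 ± 3.16 to 87.6 ± 6.85 CPM and the acetyltransferase gene Kat2b from 62.0 ± 3.22 to 90.9 ± 8.76 CPM. Med1, the Mediator subunit that nuclear receptors contact, fell from 59.7 ± 2.88 to 39.7 ± 3.11 CPM, a call that was absent with total counts as the scaling (edgeR adjusted p = 0.178). Of 13 genes for Rxra, further RXR partners and the REV-ERB receptors, 5 rose and 4 fell, beside 25.0% and 25.2% of all tested genes. Beside Rxra and Nr1d1 these included Nr4a1, an immediate early receptor gene (11.5 ± 1.0 to 19.4 ± 2.30 CPM), and the retinoic acid receptor gene Rarg (32.4 ± 3.42 to 21.5 ± 2.20 CPM). Rarg did not pass with total counts as the scaling (edgeR adjusted p = 0.252). The table's own pathway term for thyroid hormone signalling held 100 tested genes besides the 6, of which 37 rose and 27 fell (median 0.05), beside 25.0% and 25.2% of all tested genes. Scaled by total counts, 62 of these genes were higher and 8 lower, beside 7431 and 1196 of the 13117 tested genes.

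**Figure D4:**
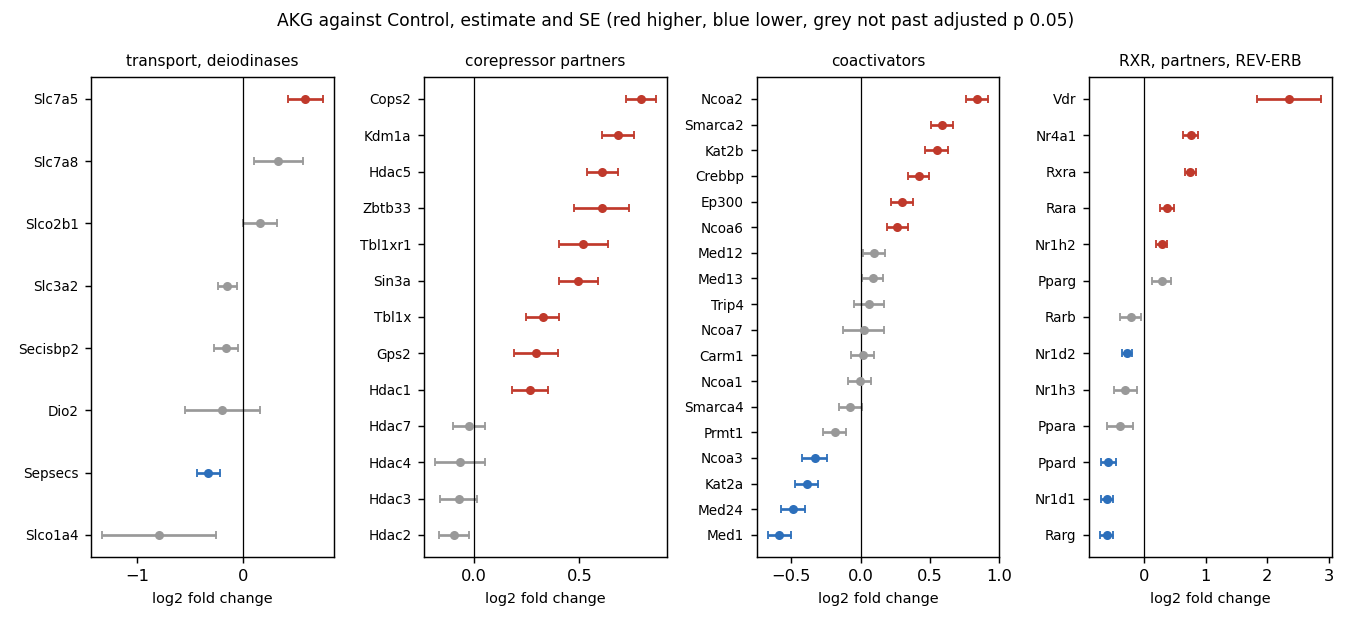
Log2 fold change of AKG against Control (horizontal axes, ranges differ) with SE for tested genes of transport and conversion, corepressor partners, coactivators, and RXR partners. Red points passed as higher, blue as lower and grey did not pass; 9 of 13 corepressor partners are red and 0 are blue.

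Genes known to be raised by thyroid hormone were mostly lower after AKG. Of 23 such genes, 18 fell and 1 rose, with a median log2 fold change of -0.86, beside 25.2% lower and a median of 0.00 over all tested genes. The list was drawn up with results for some of its genes known and includes genes of respiration and glucose uptake that have other regulators. It shares Myh6, Ryr2 and Tnni3 with the 10 heart muscle cell markers, of which 8 fell, with a median of -0.80 and sums of 63500 to 68900 CPM in Control and 32900 to 37200 CPM after AKG. Their part in the list's fall was not tested. Hr, the Hairless corepressor and a classic receptor target, stood at 22.8, 27.6 and 27.1 CPM in Control and at 2.53, 2.55 and 3.27 CPM after AKG. Its AKG values were close together and far below the Controls (9.24-fold lower, SE 0.145 on the log2 scale, edgeR adjusted p = 5e-09). The pacemaker channel gene Hcn2 stood at 47.5, 47.0 and 47.6 CPM in Control and at 8.88, 11.1 and 10.8 CPM after AKG. The potassium channel gene Kcnd2 fell from 10.2 ± 0.408 to 2.82 ± 0.28 CPM, the glucose transporter gene Slc2a4 by 1.46 on the log2 scale and the cytochrome c gene Cycs by 1.57. Myh6 fell by 1.16 and the calcium pump gene Atp2a2 by 0.53 on the log2 scale, and Atp2a2 did not pass with total counts as the scaling (edgeR adjusted p = 0.595). The transcriptional coactivator gene Ppargc1a, named because it alone rose, had an estimate of 0.85. Klf9, another classic target, stood at 74.9, 77.2 and 76.0 CPM in Control and at 68.2, 96.1 and 110 CPM in AKG 1, 2 and 3. AKG 1 lay below the Controls and AKG 2 and 3 above them, and the test was not passed (edgeR adjusted p = 0.201). It was passed without AKG 1 (0.000451) and with total counts as the scaling (0.00506). Adrb1, the β1-adrenergic receptor gene, stood at 11.8 ± 1.62 and 12.8 ± 1.54 CPM (edgeR adjusted p = 0.516). With total counts as the scaling Adrb1 passed as higher (0.56, edgeR adjusted p = 0.00471).

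Of 8 tested genes known to be lowered by thyroid hormone, 5 rose and 1 fell, beside 25.0% and 25.2% of all tested genes. The list holds 1 of the 6 genes, Thra, whose rise is given above and is counted again here. Myh7 and Tnni1, the slow troponin I of the fetal heart, rose by 6.34 and 6.26 on the log2 scale, the adenylyl cyclase gene Adcy6 rose by 0.47, and Slc8a1 and Thra itself completed the 5. Kcne1 fell by 0.65, and Pln, which restrains the calcium pump, stood at 3238 ± 73.5 and 3216 ± 106 CPM (edgeR adjusted p = 0.939). With total counts as the scaling Pln passed as higher (0.43, edgeR adjusted p = 0.000546). The ratio of Myh7 to Myh6 per length was 0.00042, 0.000418 and 0.000407 in the Control libraries and 0.113, 0.0711 and 0.0747 in AKG 1, 2 and 3. The sequences of the 2 myosins are close, so the split of reads between them is uncertain.

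**Figure D5:**
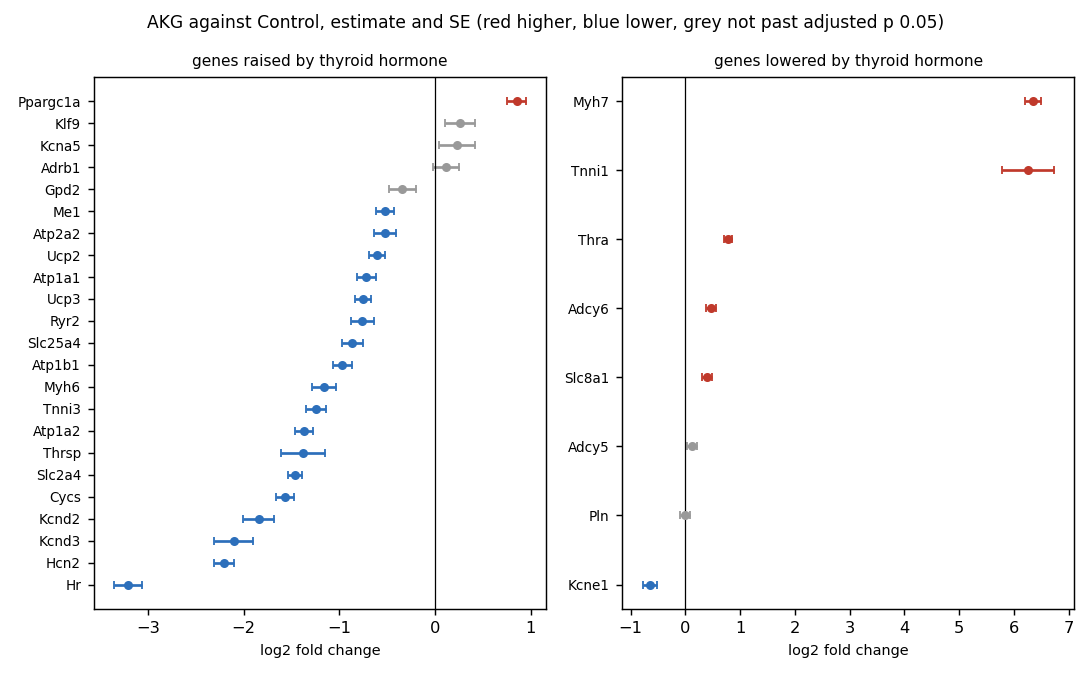
Log2 fold change of AKG against Control (horizontal axes, ranges differ) with SE for tested genes raised (left) or lowered (right) by thyroid hormone. On the left 18 of 23 are blue (passed as lower), with Hr at -3.21, and on the right Myh7 and Tnni1 stand above 6.

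A looser form of the direct repeat, AGGTNANNNNAGGNCA, was found in 0.177% of the 32851 promoter windows, and the strict form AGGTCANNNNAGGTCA in 0.0152%. Windows were available for 18 of the 23 raised genes, of which 1, Myh6, held the looser repeat and 3 held the hexamer. Over all 27025 gene symbols with a window, 52 held the looser repeat and 4260 the hexamer. Of the 6 lowered genes with a window, 0 held either. The promoters of Myh6 and Hcn2 are shown as examples among genes that fell, Myh6 for the looser repeat and Hcn2 for 2 hexamers, with matches in capitals, here read from the opposite strand.
Myh6, minus strand, chr14:54966652-54966787: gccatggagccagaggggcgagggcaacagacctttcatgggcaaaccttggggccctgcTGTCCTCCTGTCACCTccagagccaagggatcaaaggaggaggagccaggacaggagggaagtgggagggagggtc
Hcn2, plus strand, chr10:79716384-79716531: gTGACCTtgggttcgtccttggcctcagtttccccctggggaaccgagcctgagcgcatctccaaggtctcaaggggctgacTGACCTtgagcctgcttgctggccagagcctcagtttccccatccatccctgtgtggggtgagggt
The Myh6 match begins 120 bases before the start. The promoter of this gene has long been known to hold a thyroid response element. The looser form leaves free the 2 letters of the hexamers at which this match departs from the strict form. The Myh6 match is therefore not an independent result. The Hcn2 window holds the hexamer at 249 and 168 bases before the start. The window of Ucp3, a mitochondrial uncoupling protein gene that also fell, holds it at 149 and 44 bases before the start.

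Some genes followed the 6 closely over all libraries. Likeness was the root mean square distance between log2 profiles over the 6 libraries, each centred on its own mean, and as the groups differ it mostly reflects the same step between them. Nearest to Thra were Axin1 (distance 0.0263) and Cops2 (0.0285), and nearest to Thrb were Ndrg4 (0.0506) and Lyrm7 (0.0553). Slc16a10 lay nearest to Nol3 (0.0377) and 1190007I07Rik (0.0438), and Rxrb to Elf1 (0.0137) and Spsb2 (0.0294). Spsb2 had only 22 to 41 counts per library and did not pass the test (edgeR adjusted p = 0.167). Ncor1 lay nearest to Shprh (0.0204) and Dync1h1 (0.022). Rxrg was matched less closely, by Art1 (0.128) and by Cox7a1 (0.133), a subunit of muscle cytochrome oxidase that fell from 168 ± 16.1 to 30.9 ± 5.75 CPM.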

How the data were processed

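RNA of isolated mouse heart muscle cells was measured in 3 Control and 3 AKG libraries. The authors deposited whole-number counts and FPKM per gene, and, in the authors' deposited table, a log2 fold change of mean FPKM with a p-value and false discovery rate, which are not used here. Per the submitters' processing notes, RSEM 1.2.19, HISAT2 2.1.0 and DESeq2 1.20.0 were used. The sources used here do not give their roles, the genome build or the use of strand. In 60 cells a count of 0 stood beside an FPKM above 0, as for rounded expected counts. Rows without a symbol (30) held 3.95e-05% of counts.

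Counts were tested in R 4.3.3 with edgeR 4.0.16 (filterByExpr with minimum count 10 and minimum total 15, TMM scaling, robust quasi-likelihood fit). The fit was also run on simulated counts with few changed genes, a setting that does not test the scaling. Each SE was derived from the estimate and the F statistic (estimate over root F). FPKM was used for levels between genes and for ratios, which were tested by exact permutation. Alternatives used DESeq2 1.42.0, limma 3.58.1, other scalings and filters, covariates and left-out libraries.

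The 6 genes and all lists were chosen with earlier results of these data known. Named were the 6, 16 fixed genes, up to 4 genes of each list with the smallest p among those past the threshold, and the 2 nearest profiles of each among genes of mean CPM of at least 1 (log2 of CPM plus 0.5). Kcne1, Slc8a1, Ppargc1a, Ucp3, the uncalled Hdac genes and genes at 0 were named after their values were seen. Some genes and ratios of the plan are not reported here. Promoters came from RefSeq (GRCm38.p6), and 21973 of 22063 gene IDs matched GENCODE M21, which was used for names of overlapping genes.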

Additional observations from a re-analysis of the deposited data

How the results depend on the processing

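Thra, Thrb, Slc16a10, Rxrb and Rxrg kept their direction and their call in all 21 alternatives, and the 4 ratios kept their direction in the 7 alternatives run for them. Leaving out 1 library gave 0.75 to 0.81 for Thra, -1.49 to -1.20 for Thrb, -1.13 to -0.94 for Slc16a10, 0.32 to 0.44 for Rxrb, -2.63 to -2.44 for Rxrg and 0.05 to 0.11 for Ncor1. Correlations of same-numbered deviations were 0.153, -0.0152 and 0.039, beside -0.105 to 0.0593 for libraries of different numbers. With so few libraries these values do not settle whether replicate numbers pair the libraries. With the replicate block 3257 genes were higher, Rxrg had -2.51 and Thrb -1.35, and no call among the 6 changed.

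Scaling mattered most. Scaling by total counts gave 7431 genes higher and 1196 lower, limma on log2(FPKM + 1) gave 6722 and 1075, and on log2(FPKM + 0.1) 6709 and 1070. In these 3 settings, in that order, Ncor1 had 0.52, 0.59 and 0.61 and passed. The estimates of Hdac3 became 0.37, 0.31 and 0.32 and of Pln 0.43, 0.55 and 0.55, and both passed as higher in each. Adrb1 (0.56, 0.45 and 0.55) and Klf9 (0.71, 0.65 and 0.68) also passed as higher in each. The estimates of Sepsecs became 0.12, 0.083 and 0.10, and that of Dio2 became 0.25 with total counts, without passing. Transport and conversion genes had 5, 4 and 4 higher and 0 lower, coactivators 14 higher and 0 lower, RXR partners 0 lower, hormone-raised genes 4 higher and hormone-lowered genes 0 lower. Corepressor partners had 13 higher in each of the 3 settings. The pathway term had 62, 58 and 58 higher and 8 lower. The 18 hormone-raised genes that fell numbered 14 to 19 over the settings without a library left out.

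With the atrial covariate 2071 genes were higher and 2190 lower, 5 corepressor partners and 0 transport genes were higher, and Adrb1 had -0.023. The atrial covariate was high in AKG 1 and AKG 3 only, so this fit leans mainly on AKG 2. With AKG 2 alone 3 hormone-raised and 2 transport genes were higher and Pln had 0.0013; without a count filter Pln had 0.00081. With DESeq2 0 transport genes were lower. With 1 library left out, 0 to 1 transport genes were lower and 1 to 2 higher, 3 to 6 RXR partners and 1 to 3 hormone-raised genes higher, and Hdac3 ranged from -0.12 to 0.0013, Pln from -0.024 to 0.021 and Dio2 from -0.59 to 0.12. The causes were not tested.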
